A study of Mus musculus with 6 samples.

Results

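Histone genes were followed in cultured mouse astrocytes that received a control or a Cre lentivirus. The array probes taken were those whose platform gene symbol names a linker or core histone, found by a pattern over the symbols (major histocompatibility symbols, which also start with H2, stay out) and kept where the authors' table held a value on at least 3 of the 6 arrays. Of 69 probes for 64 genes that matched, 67 probes for 62 genes were kept, out of 23473 probes in all. The other two were H1f6, with no value on any array, and H1f8, with values of 1 and 2 on control replicates 2 and 3 alone; just inside the limit stood H4c11, with 4 values, and the other 66 probes had all 6. By symbol, 55 kept probes (50 genes) belong to the replication-dependent clusters, and 12 probes (12 genes) to variants coded elsewhere.

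The cells were astrocytes of newborn (P0) C57BL/6J cortex in which both Chd7 alleles carry lox sites (Chd7flox/flox), in both groups. The medium held FGF2, EGF, B-27 and 10% fetal bovine serum, and RNA was taken at day 3 after infection with a control lentivirus (3 arrays) or a Cre lentivirus (3 arrays). Chd7 encodes a chromatin remodeller that slides nucleosomes, and Cre removes the floxed part of the gene. The labels do not say what drives Cre, or whether the replicates of a group are separate cultures or animals, so the p-values below reflect sample-to-sample spread that could be technical in origin. The groups hold no Cre culture without the floxed gene, so the recombinase and the loss of Chd7 cannot be told apart.

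Core histones H2A, H2B, H3 and H4 form the octamer around which DNA winds, and linker histone H1 binds the DNA that enters and leaves it. The replication-dependent genes lie in clusters as many near-identical copies, are transcribed mainly in S phase, and their mRNAs end in a stem-loop instead of a poly(A) tail. Variants such as H3.3, H2A.Z and macroH2A come from genes outside the clusters with polyadenylated mRNAs, and are deposited outside replication too. The labels name an amplification kit that primes on poly(A) tails, so probes of cluster genes report transcripts that this priming reached; what share of each gene's RNA that was, and how far near-identical copies hybridise to the same probe, was not tested. A brighter probe is therefore not read as more RNA than a dimmer one.

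The linker gene H1f2 carries the lead result, which did not pass the adjusted threshold (below). Its promoter is given beside those of the other cluster H1 genes, with no link to the group differences tested. Given here are the 125 bases before the annotated start of the 5 cluster H1 genes, 5′ to 3′ on the gene's strand, from RefSeq (GRCm38.p6). Capitals mark the H1 box (AAACACA) and CCAAT, each searched on both strands, and TATAA or TATATA, which can overlap, on the gene's strand. H1f2 lies at chr13:23738682-23738806 (plus strand), H1f3 at chr13:23554907-23555031 (plus), H1f4 at chr13:23622559-23622683 (minus), H1f5 at chr13:21780626-21780750 (minus) and H1f1 at chr13:23763543-23763667 (plus).
H1f2: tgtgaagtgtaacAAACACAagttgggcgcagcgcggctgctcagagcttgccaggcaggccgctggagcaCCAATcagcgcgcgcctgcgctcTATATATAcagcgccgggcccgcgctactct
H1f3: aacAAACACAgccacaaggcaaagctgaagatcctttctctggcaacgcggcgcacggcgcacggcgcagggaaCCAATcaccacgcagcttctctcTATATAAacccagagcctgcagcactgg
H1f4: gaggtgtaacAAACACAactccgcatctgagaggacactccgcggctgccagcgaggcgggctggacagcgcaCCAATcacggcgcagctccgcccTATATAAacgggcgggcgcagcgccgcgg
H1f5: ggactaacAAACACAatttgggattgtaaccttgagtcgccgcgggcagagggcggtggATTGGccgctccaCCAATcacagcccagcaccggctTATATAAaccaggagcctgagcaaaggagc
H1f1: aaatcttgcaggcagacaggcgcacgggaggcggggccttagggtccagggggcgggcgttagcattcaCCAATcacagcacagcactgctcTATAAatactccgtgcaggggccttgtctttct

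The H1 box stood in the windows of H1f2, H1f3, H1f4 and H1f5, starting 112, 122, 115 and 117 bases before the start, and these letters were not in the H1f1 window. All 5 windows held CCAAT, the copy nearest to the start beginning 51 to 56 bases before it, and a TATA match closer in. Over 32851 promoter windows of 250 bases, 6.25% held the H1 box letters, 33.8% CCAAT and 18.4% a TATA match. A match is a description of the letters only.

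**Figure D1:**
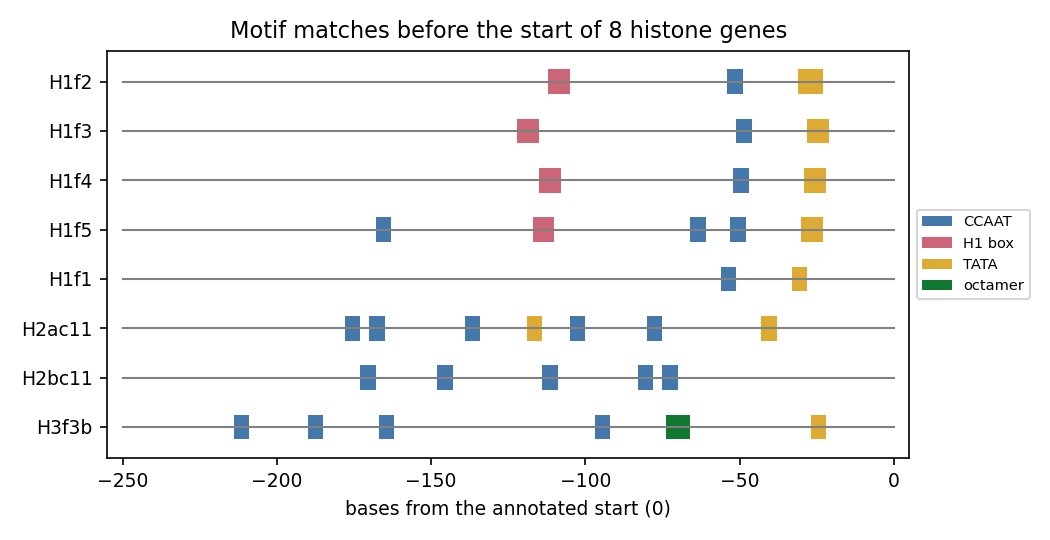
Matches to 4 motifs in the 250 bases before the annotated start (0) of 8 histone genes, drawn to scale; each grey line is 1 window and each coloured block 1 match. H1f2, H1f3, H1f4 and H1f5 hold an H1 box 112 to 122 bases before the start, while H1f1 holds none.

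Chd7 itself was checked first. Probe M300016343 read 7.12 ± 0.32 (SD, n = 3) in control and 5.99 ± 0.020 (SD, n = 3) in Cre cultures on the normalised log2 scale, a difference of -1.13 with no overlap. Its limma adjusted p was 0.399 over all probes and 0.00105 over the 2 Chd7 probes alone. The difference was -0.53 with the local background column, -2.07 with an offset of 10 and -2.71 both with plain subtraction and on the authors' values as log2(value + 1). Probe M400002483 read 6.14 ± 0.063 (SD, n = 3) in control and 6.03 ± 0.080 (SD, n = 3) in Cre cultures. Whether either probe lies in the floxed part was not checked. Between 83.7% and 90.7% of probes were above background on an array, and the 6 arrays limit the precision. All 12 tested astrocyte markers were above background on all 6 arrays.

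The linker histone gene H1f2 and the H3.3 gene H3f3b read lower on every Cre array than on any control array. Their differences were -0.56 and -0.32 on the normalised log2 scale, where core histone genes of the clusters overlapped between the groups. On the authors' values some core cluster probes did not overlap (below). No histone probe passed the adjusted threshold of 0.05 in limma, and 0 of all 20747 probes tested (0%) did. All 67 were among the probes tested, that is, above background on at least 3 arrays; H4c11 passed that filter on 2 control arrays and 1 Cre array, and the H1f11-ps pseudogene on 2 of each. At an unadjusted p under 0.05 there were 2 lower and 1 higher histone probes, against 2.83% and 2.75% of all probes. The groups did not overlap for 5 histone probes, all lower in Cre cultures (7.46%), against 5.27% of all probes lower and 5.23% higher. These shares are close to the background, and the counts of calls set histones apart from other probes in neither direction. The share of differences below 0 was 46 of 67 probes (68.7%), against 50.3% of all probes. The median difference was -0.075 over the 55 cluster probes and -0.0036 over the 12 variant probes, against -0.00057 over all probes. In the same-numbered pairs the cluster median was -0.091, 0.094 and -0.31, so it had no single sign.

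**Figure D2:**
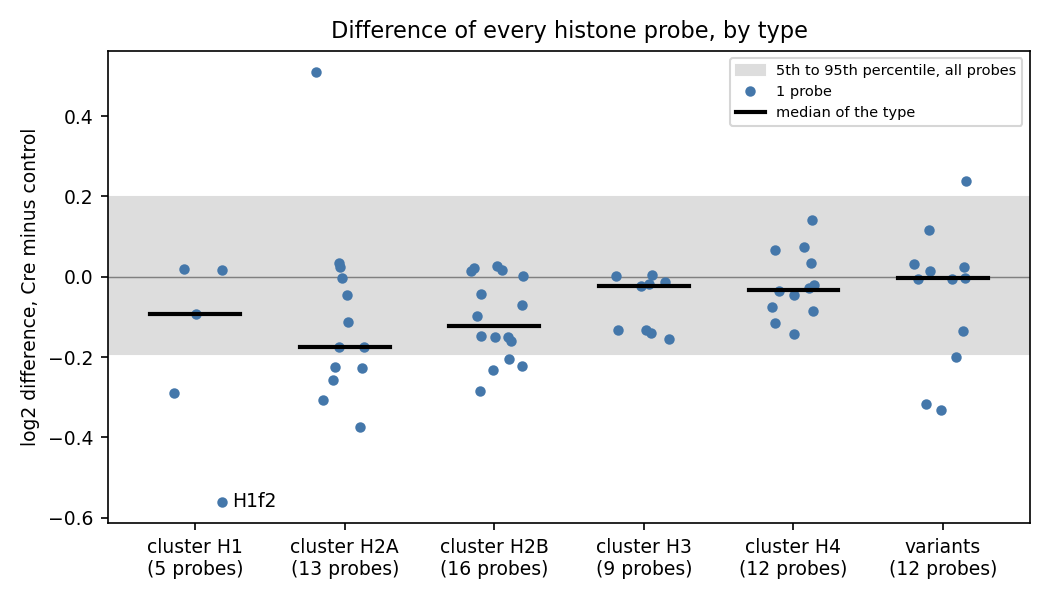
Log2 difference (Cre minus control) of each of the 67 histone probes, grouped by histone type; points are probes, black bars medians, and the grey band the 5th to 95th percentile of all probes (-0.19 to 0.20). H1f2 at -0.56 lies lowest of all members, and the medians of all types lie inside the band.

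H1f2 (older symbol Hist1h1c, H1.2), one of the main somatic linker histones, was the member with the largest difference. Its normalised log2 intensity was 12.03, 12.08 and 12.10 on the control arrays and 11.39, 11.62 and 11.52 on the Cre arrays. The 3 Cre arrays lay below all 3 control arrays, and the SD was 0.037 between control and 0.11 between Cre arrays (n = 3 each). The difference was -0.56 (SE 0.065, n = 3 per group), 95% interval -0.72 to -0.40, or 1.47-fold lower. The limma adjusted p was 0.399 over all probes, so it did not pass. The exact permutation test (two-sided) returned p = 0.1, and no lower value can come from 3 arrays against 3. H1f2 already stood among the smallest p-values in an earlier look at these data, so its rank is no independent support. In the authors' linear values it read 2367, 2718 and 3054 on the control arrays and 1554, 1575 and 1688 on the Cre arrays, and the Cre mean was 59.2% of the control mean. Those values ran lower in Cre cultures in general: as log2(value + 1), the median difference of all probes was -0.153 and that of H1f2 -0.75. On the normalised scale H1f2 was lower in all 3 same-numbered pairs, with pair differences of -0.64, -0.46 and -0.59. Of all probes tested, 0.164% had a difference as low or lower. When the local background column replaced the blanks, the difference became -3.38 (limma adjusted p = 0.58), and over the other alternatives it ranged from -0.75 to -0.50. In bulk RNA, fewer cells that express a gene and less of its RNA per cell cannot be told apart.

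The other cluster linker genes gave dim probes, near the floor that the offset of 50 intensity units sets, where differences are compressed. H1f3 (H1.3) read 6.49, 6.45 and 6.91 on the control arrays and 6.23, 6.40 and 6.36 on the Cre arrays. Its groups did not overlap either; control replicate 3 was high, and the highest Cre array lay just under the other controls. Its difference was -0.29 (SE 0.13, n = 3 per group), which did not pass (adjusted p = 0.939), and without control replicate 3 it was -0.14. With an offset of 10 it was -0.51 and on the authors' values, as log2(value + 1), -0.73; the median of all probes was -0.153 on that last scale. In the authors' values H1f3 read 24, 24 and 43 on the control arrays and 15, 18 and 19 on the Cre arrays. H1f1 (H1.1) read 6.03, 5.90 and 6.14 on the control arrays and 5.88, 5.97 and 5.94 on the Cre arrays, with overlapping groups and a difference of -0.092 (SE 0.068, n = 3 per group), which was -0.24 with an offset of 10 and -0.56 on the authors' values. H1f4 (H1.4), whose window holds the H1 box as that of H1f2 does, read 5.77, 5.80 and 5.80 on the control arrays and 5.85, 5.82 and 5.75 on the Cre arrays, a difference of 0.017 (95% interval -0.084 to 0.12). H1f5 (H1.5), with the H1 box too, read 5.78, 5.85 and 5.93 on the control arrays and 5.85, 5.85 and 5.92 on the Cre arrays, a difference of 0.018 (95% interval -0.11 to 0.15). Both overlapped between groups, and their authors' values, 2 to 4 for H1f4 and 3 to 7 for H1f5, left little signal to compare. A difference between linker genes was not tested.

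Linker genes outside the clusters gave dim probes too, and their groups overlapped, as did those of the cluster genes H1f1, H1f4 and H1f5. A contrast between linker genes inside and outside the clusters was not tested. H1f10 (H1.10), a replication-independent linker histone, read 6.13, 6.45 and 6.29 on the control arrays and 6.22, 6.37 and 6.26 on the Cre arrays. Its difference was -0.0057 (SE 0.093, n = 3 per group), 95% interval -0.24 to 0.22. The testis gene H1f7 read 5.74, 5.76 and 5.75 on the control arrays and 5.72, 5.80 and 5.73 on the Cre arrays, and the pseudogene H1f11-ps 5.72, 5.69 and 5.71 on the control arrays and 5.73, 5.76 and 5.71 on the Cre arrays. These are levels at the floor, with differences of -0.0023 and 0.024.

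**Figure D3:**
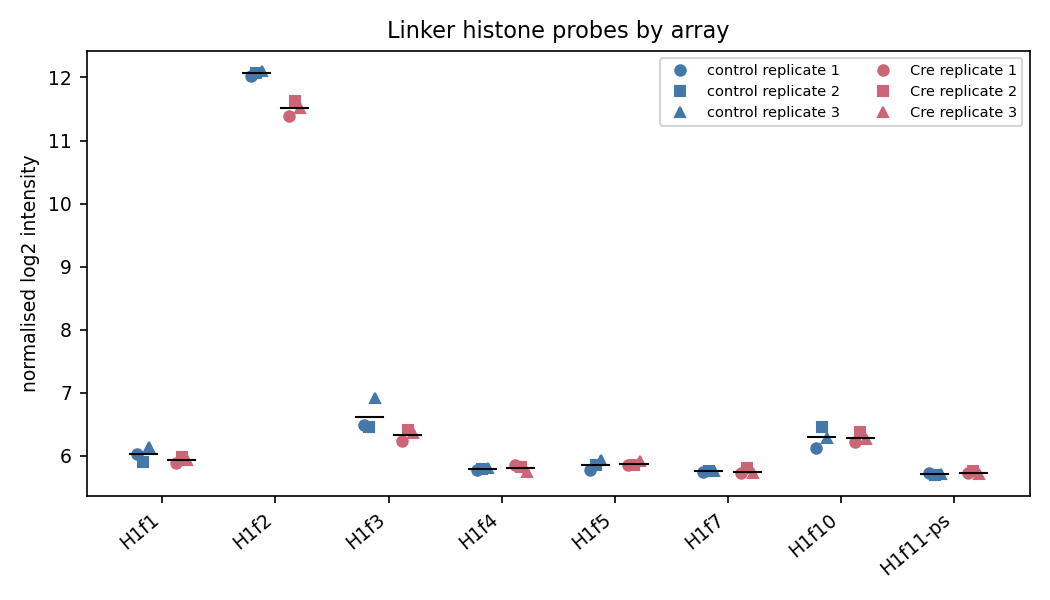
Normalised log2 intensity of the 8 linker histone probes, with 1 point per array (blue control, red Cre; the symbol gives the replicate number) and a black bar at each group mean (n = 3). The H1f2 points separate, at 12.03 to 12.10 against 11.39 to 11.62.

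Among the variants, H3f3a and H3f3b both encode H3.3, the H3 placed into chromatin outside replication. H3f3b read 12.67, 12.94 and 12.64 on the control arrays and 12.25, 12.57 and 12.47 on the Cre arrays. Every Cre array lay below every control array, and the difference was -0.32 (SE 0.12, n = 3 per group), 95% interval -0.61 to -0.027, which did not pass (adjusted p = 0.845; exact permutation p = 0.1). The authors' values were 3661, 4833 and 4441 on the control arrays and 2830, 3039 and 3283 on the Cre arrays, 70.8% of the control mean in Cre cultures. H3f3a read 11.84, 12.03 and 12.01 on the control arrays and 11.96, 12.06 and 11.91 on the Cre arrays, with overlapping groups. Its difference was 0.015 (SE 0.070, n = 3 per group), 95% interval -0.16 to 0.19, and it turned to -0.05 under median scaling. With the local background column both became lower, at -1.14 for H3f3b and -1.31 for H3f3a, and on the authors' values they were at -0.49 and -0.16. The median of all probes on that last scale was -0.153. The difference between H3f3a and H3f3b was not tested. The 250 bases before the H3f3b start (chr11:116024505-116024754, minus strand) are given because they hold letters that are common in cluster windows; capitals mark CCAAT, a match to TATAA, and, searched on both strands and here on the opposite one, the octamer ATTTGCAT.
H3f3b: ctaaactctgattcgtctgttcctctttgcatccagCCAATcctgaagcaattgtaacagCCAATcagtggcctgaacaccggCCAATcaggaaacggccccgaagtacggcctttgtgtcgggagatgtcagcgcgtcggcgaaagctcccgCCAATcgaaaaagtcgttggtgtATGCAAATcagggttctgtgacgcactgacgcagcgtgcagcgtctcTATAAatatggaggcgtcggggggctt

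The H3f3b window held CCAAT 4 times, the octamer once and TATAA once. The octamer stood in 1 of 9 variant windows, in 9 of 43 cluster windows (4 of 10 for H2A, 5 of 12 for H2B, none for H1, H3 or H4) and in 1.6% of all windows. CCAAT stood in 34 of the 43 cluster windows, but in 3 of the 11 for H4. Of the 62 member genes, 51 had a window in the table.

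The H2A variants stood on both sides of 0. H2aj (H2A.J), a replication-independent H2A, was the one histone probe higher in Cre cultures at an unadjusted p under 0.05: it read 10.62, 10.46 and 10.72 on the control arrays and 10.95, 10.85 and 10.72 on the Cre arrays, and control replicate 3 and Cre replicate 3 were level. Its difference was 0.24 (SE 0.090, n = 3 per group) with an adjusted p of 0.861 in limma. With the replicate number as a block its unadjusted p was 0.0656, so that call was lost, and with the local background column it turned to -0.75. On the authors' values it was 0.071, where the median of all probes was -0.153. Macroh2a2, which codes for a large variant found at silent chromatin, read 8.15, 8.45 and 8.14 on the control arrays and 8.09, 8.10 and 7.95 on the Cre arrays. Its groups did not overlap, with Cre replicate 2 just under control replicate 3, and the difference of -0.20 (SE 0.10, n = 3 per group) did not pass, with a limma adjusted p of 0.968. Without control replicate 2 it was -0.10. Macroh2a3, a transcribed pseudogene in RefSeq, read 6.94, 7.01 and 6.97 on the control arrays and 6.89, 6.89 and 6.74 on the Cre arrays. It did not overlap either; its difference of -0.13 (SE 0.055, n = 3 per group) had a limma adjusted p of 0.904 and turned to 0.12 with the local background column. Macroh2a1 read 9.24, 8.77 and 9.24 on the control arrays and 9.02, 8.98 and 9.24 on the Cre arrays, a difference of -0.0049 (95% interval -0.38 to 0.37) with overlapping groups.

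H2ax codes for H2A.X, the variant phosphorylated at DNA breaks. It read 7.54, 8.92 and 7.84 on the control arrays and 7.51, 7.92 and 7.86 on the Cre arrays. Control replicate 2 stood alone, about 1 log2 unit above every other array, and the other 5 arrays overlapped. The difference of -0.33 (SE 0.37, n = 3 per group) rested on that array: without control replicate 2 it was 0.08. The H2A.Z genes, whose product marks promoters, had overlapping groups. H2az1 read 10.98, 11.45 and 11.44 on the control arrays and 11.21, 11.51 and 11.51 on the Cre arrays, a difference of 0.12 (95% interval -0.27 to 0.51). H2az2 read 10.997, 11.09 and 11.28 on the control arrays and 11.02, 11.10 and 11.34 on the Cre arrays, a difference of 0.032 (95% interval -0.24 to 0.31). Under median scaling H2az2 turned to -0.02, and in the authors' values H2az1 was at -0.06 and H2az2 at -0.13. The median of all probes on that last scale was -0.153.

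**Figure D4:**
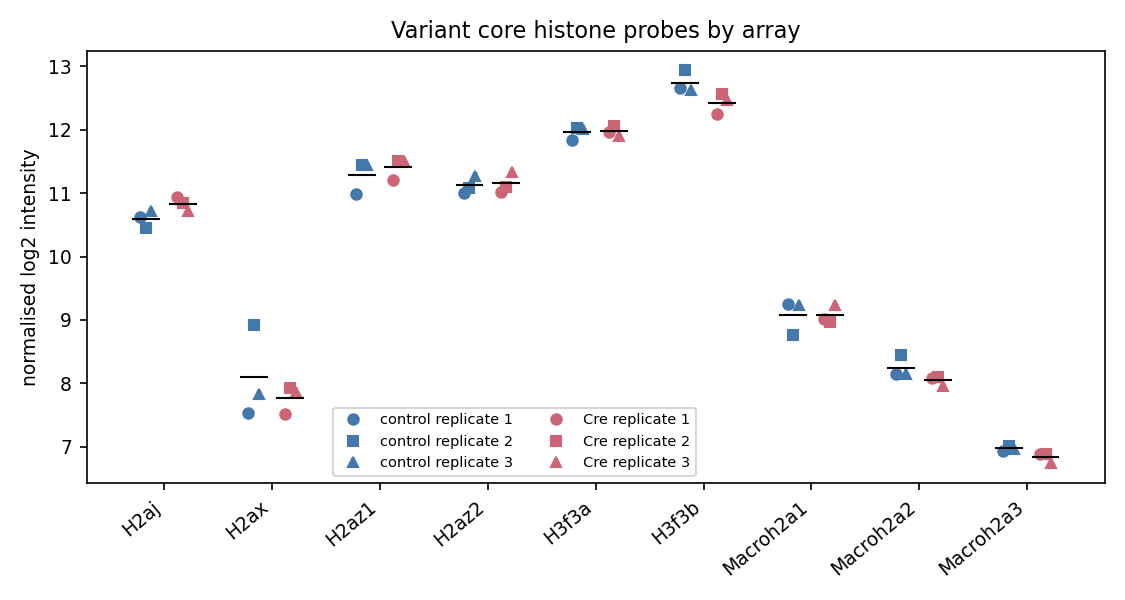
Normalised log2 intensity of the 9 variant core histone probes, with 1 point per array (blue control, red Cre; the symbol gives the replicate number) and a black bar at each group mean (n = 3). H3f3b, Macroh2a2 and Macroh2a3 do not overlap between groups, and the H2ax control mean is raised by control replicate 2 at 8.92.

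Core histones of the clusters varied more between control arrays than the median probe did. The median SD between control arrays was 0.27 over the 50 core cluster probes and 0.082 over all probes. Between Cre arrays it was 0.13 and 0.072. The sets were not matched for intensity, and the offset compresses the spread of dim probes. Among S phase genes, the SD between control arrays was 0.43 for Mcm6 and 0.57 for Cdt1, but 0.039 for Rfc3. Whether the spread is particular to histones was not tested. Of 13 H2A probes, 10 were lower in Cre cultures (median -0.17), of 16 H2B probes 11 (-0.12), of 9 H3 probes 7 (-0.023) and of 12 H4 probes 8 (-0.032). None of these 50 probes reached an unadjusted p under 0.05 and none had groups that did not overlap, against 2.83% and 5.27% of all probes for the lower direction. Their smallest limma adjusted p was 0.934.

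Over the control arrays, the H4, H2B and H3 medians were lowest on replicate 2 and highest on replicate 3, and H2A differed. The values that follow are medians over the probes of a type, each probe taken relative to its own mean over the 6 arrays. H4 stood at 0.18, -0.49 and 0.31 on the control arrays and -0.046, 0.056 and -0.036 on the Cre arrays. H2B stood at 0.11, -0.26 and 0.24 on the control arrays and -0.0049, -0.055 and -0.15 on the Cre arrays. Both were low on control replicate 2 and high on control replicate 3, with the Cre arrays in between. H2A stood at -0.15, 0.21 and 0.21 on the control arrays and -0.091, 0.024 and -0.083 on the Cre arrays, so that it was low on control replicate 1 and high on both other controls. H3 stood at 0.10, -0.066 and 0.14 on the control arrays and -0.094, 0.028 and -0.022 on the Cre arrays. Control replicate 2 was the lowest control in 10 of 12 H4, 10 of 16 H2B and 8 of 9 H3 probes, against 37.4% of all probes, and in 2 of 13 H2A probes. Control replicate 1 was the lowest control in 10 of 13 H2A probes, against 29.7% of all probes. The SD between control arrays exceeded that between Cre arrays in 12 of 12 H4 probes and in 55.7% of all probes. These counts describe the arrays and were not tested; genes of one type have near-identical coding sequences, so their probes may not be independent.

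**Figure D5:**
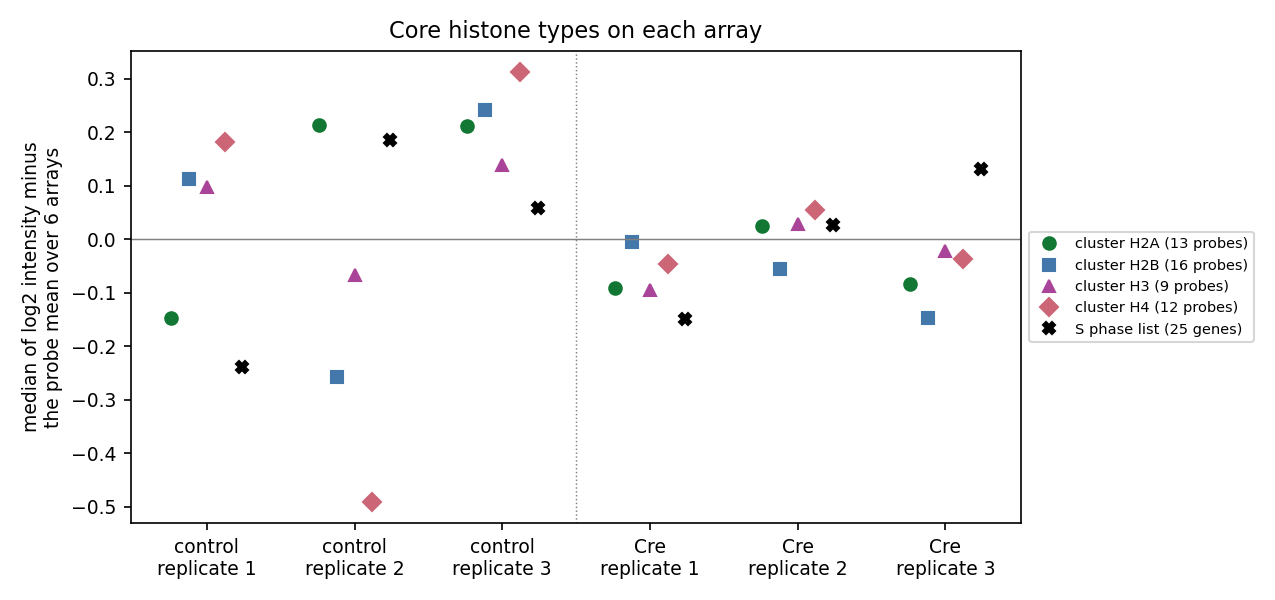
Median over the cluster probes of each core histone type, and over the S phase list, of log2 intensity minus the probe's mean over the 6 arrays, for each array (the dotted line parts control from Cre). H4 and H2B are lowest on control replicate 2 (-0.49 and -0.26), where H2A is at 0.21.

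The probes named for H2ac11 and H2bc11, chosen after their values were seen, followed the H2A and H2B patterns. These genes lie head to head, and 248 bases of their promoter windows are the same stretch. Whether each probe reports its own gene, or also near-identical genes of its type elsewhere, was not tested. The window of H2bc11 is given (chr13:22042948-22043197, plus strand), with CCAAT of either strand in capitals.
H2bc11: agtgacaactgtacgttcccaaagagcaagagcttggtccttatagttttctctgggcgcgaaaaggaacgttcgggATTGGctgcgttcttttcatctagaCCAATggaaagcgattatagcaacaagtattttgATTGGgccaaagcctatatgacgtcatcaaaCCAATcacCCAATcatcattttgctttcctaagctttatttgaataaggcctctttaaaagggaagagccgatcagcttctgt

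The H2bc11 window held CCAAT 5 times. H2ac11 read 12.22, 12.75 and 12.67 on the control arrays and 12.13, 12.61 and 12.37 on the Cre arrays. H2bc11 read 11.62, 11.06 and 11.66 on the control arrays and 11.39, 11.12 and 10.97 on the Cre arrays. Control replicate 2 was the highest control for H2ac11 and the lowest for H2bc11. The differences between groups were -0.17 (SE 0.18, n = 3 per group) and -0.29 (SE 0.20, n = 3 per group), and neither passed (limma adjusted p = 0.999 for both). Of the other head-to-head pairs, H2ac22 and H2bc22 share 239 bases of their windows and H2ac1 and H2bc1 share 220. H2ac22 read 11.41, 11.98 and 12.05 on the control arrays and 11.44, 11.72 and 11.58 on the Cre arrays, and H2bc22 11.15, 10.36 and 11.13 on the control arrays and 10.88, 10.63 and 10.46 on the Cre arrays. Of the controls, replicate 1 was lowest for H2ac22 and replicate 2 for H2bc22. The testis types H2ac1 and H2bc1, near the floor, did not show this: H2ac1 read 5.91, 5.89 and 5.96 on the control arrays and 5.97, 5.92 and 5.93 on the Cre arrays, lowest of the controls on replicate 2. H2bc1 read 6.07, 6.03 and 6.01 on the control arrays and 5.96, 6.02 and 5.83 on the Cre arrays, lowest of the controls on replicate 3.

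Leaving out control replicate 2 moved the count of lower histone probes at an unadjusted p under 0.05 from 2 to 17, against 3.35% of all probes in that fit; 0 were higher, against 3.34%. The 17 were 3 H1, 6 H2B, 3 H3 and 5 H4 probes, with no H2A probe among them, and 0 passed the adjusted threshold (smallest adjusted p = 0.468). All 12 H4 probes were then below 0, with a median of -0.23, the H2B median was -0.22 and the cluster median -0.17. Control replicate 2 was the lowest control for most H4, H2B and H3 probes but for few H2A probes. Leaving it out therefore raises the control mean of those types, so the count of 17 and its types follow in part from the array removed. Without control replicate 1, 6 histone probes were lower at that threshold, against 3.43% of all probes. There was 1 such probe without Cre replicate 1 or Cre replicate 3, fits for which the share of all probes was not computed. Without control replicate 3 the cluster median was -0.0016. H4c12 read 8.51, 7.67 and 8.73 on the control arrays and 8.13, 8.21 and 8.13 on the Cre arrays, at -0.14 (SE 0.27, n = 3 per group) with all arrays and -0.46 without control replicate 2. On the authors' linear values, as the deposited table gives them, 10 of the 66 probes with 6 values had groups that did not overlap, all lower in Cre cultures (15.2%), against 12% of all probes lower and 0.689% higher on that scale. The core cluster probes among them were those of H2bc1, H3c3 (M400008875 and M400012462), H3c4 and H4c14, which overlapped on the normalised scale. As log2(value + 1) in limma, 8 histone probes there were lower at an unadjusted p under 0.05, against 9.23% of probes; 0 passed after adjustment.

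The replicate numbers were taken to pair the arrays from the data, since the labels state no pairing. The SEs, intervals and p-values of the main fit do not use it. With the number as a block 6 histone probes were lower at an unadjusted p under 0.05, against 4.8% of all probes, and 0 were higher, against 4.52%. They were H1f2, H3f3b and Macroh2a2 with the H2A genes H2ac8, H2ac10 and H2ac11, and 0 passed after adjustment (smallest adjusted p = 0.393 for H1f2). With the block, H2ac8 stood at -0.31 (SE 0.10) and H2ac10 at -0.18 (SE 0.043, n = 3 pairs each), against SEs of 0.14 and 0.15 without it; H2ac10 was at 0.14 with the local background column.

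For each core type the cluster probes of highest and lowest mean signal were taken by rule and are given array by array, each compared only with itself. For H2A, the bright probe was H2ac24, which read 11.99, 12.95 and 12.96 on the control arrays and 12.06, 12.54 and 12.53 on the Cre arrays. For H2B it was H2bc4, which read 12.56, 12.09 and 12.94 on the control arrays and 12.72, 12.43 and 12.52 on the Cre arrays. Both groups overlapped, with control replicate 1 lowest for H2ac24 and control replicate 2 for H2bc4. For H3, H3c4 read 12.96, 12.80 and 13.03 on the control arrays and 12.54, 13.01 and 12.84 on the Cre arrays. For H4, H4c18 read 10.12, 9.001 and 10.74 on the control arrays and 9.92, 9.76 and 10.10 on the Cre arrays, where control replicate 2 was the lowest of the 6 arrays and control replicate 3 the highest. Groups overlapped for all 4, at differences of -0.26, 0.026, -0.13 and -0.029. With other scalings or arrays the sign of H2bc4 turned, to -0.03 under median scaling, and that of H4c18 when control replicate 1, control replicate 3 or Cre replicate 2 was left out. The dim probes lay near the floor. Hist3h2a (H2A) read 5.75, 5.80 and 5.81 on the control arrays and 5.84, 5.83 and 5.79 on the Cre arrays. H2bu1-ps, an H2B pseudogene, read 5.92, 5.88 and 5.88 on the control arrays and 5.89, 5.90 and 5.94 on the Cre arrays. The groups of both overlapped. The dim probe of H3c7 (M300017248) read 5.97, 5.94 and 6.03 on the control arrays and 6.01, 5.97 and 5.97 on the Cre arrays, while its other probe, M400012464, read 12.68, 12.23 and 12.73 on the control arrays and 12.39, 12.55 and 12.65 on the Cre arrays. H4c11 read 5.69, 5.70 and 5.80 on the control arrays and 5.69, 5.72 and 5.72 on the Cre arrays. In the order given, without M400012464, their differences were 0.034, 0.015, 0.0049 and -0.022. Probes of one gene could differ in sign. For H2ac18, M400012322 read 11.91, 12.24 and 12.41 on the control arrays and 12.14, 12.20 and 11.10 on the Cre arrays. M400008600 read 9.81, 8.999 and 8.46 on the control arrays and 10.25, 10.04 and 8.51 on the Cre arrays. M400012465 read 11.93, 12.35 and 12.25 on the control arrays and 12.25, 12.20 and 11.95 on the Cre arrays. Their differences were -0.38, 0.51 and -0.045, with SEs of 0.33, 0.57 and 0.14, and Cre replicate 3 was the lowest Cre array for all 3. Without Cre replicate 3 they were -0.018, 1.06 and 0.047. Leaving out any 1 array moved M400012322 between -0.57 and -0.018 and M400008600 between 0.18 and 1.06.

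Genes that make and place histones were taken from lists. Of 21 tested genes for histone mRNA transcription and 3′ processing, 0 passed over all probes, with 4 higher and 0 lower where p was below 0.05 before adjustment, against 2.75% and 2.83% of all probes (median 0.019). Those with the smallest p were Nfya, a subunit of the CCAAT-binding factor NF-Y, at 0.13 (SE 0.044, adjusted p = 0.777), Srrt at 0.19 (SE 0.066, adjusted p = 0.8) and Nfyb, another NF-Y subunit, at 0.22 (SE 0.088, adjusted p = 0.878). The remaining NF-Y subunit gene, Nfyc, stood the other way at -0.14 (SE 0.080, adjusted p = 0.999), with groups that did not overlap. Slbp, which binds the histone stem-loop, stood at 0.0075 and Npat, the coactivator of cluster transcription, at 0.019. Of 30 tested chaperone and deposition genes, 0 passed; with an unadjusted p below 0.05, 2 stood lower and 2 higher, against the same shares of all probes (median 0.0028). The lower ones were Tonsl, a reader of new H4 at forks, at -0.47 (SE 0.10, adjusted p = 0.537) and Asf1a, a chaperone of H3 and H4, at -0.41 (SE 0.13, adjusted p = 0.76); the co-chaperone gene Dnajc9 stood at 0.27 (SE 0.080, adjusted p = 0.731) and turned to -1.26 with the local background column. Values are log2 differences from limma, n = 3 per group.

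Proliferation genes are given beside the clusters because those are S phase genes. Of 25 tested S phase genes, 12 were lower and 13 higher (median 0.0075); before adjustment 1 lower gene had a p below 0.05, and 0 passed. Their leading members were Rfc3 at -0.12 (SE 0.042, adjusted p = 0.795), Rrm2 at 0.43 (SE 0.20, adjusted p = 0.941) and Mcm2 at 0.15 (SE 0.11, adjusted p = 0.999). Of 21 genes of G2 and mitosis, 15 were higher and 0 reached an unadjusted p under 0.05 (median 0.054), led by Cks2 at -0.23 (SE 0.11, adjusted p = 0.941), Kif23 at 0.14 (SE 0.075, adjusted p = 0.985) and Ube2c at 0.19 (SE 0.14, adjusted p = 0.999). Relative to each gene's own mean, the S phase list stood at -0.24, 0.18 and 0.058 on the control arrays and -0.15, 0.027 and 0.13 on the Cre arrays. It was high on control replicate 2, where H4 and H2B were low, and low on control replicate 1, as H2A was.

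Markers of other cells were read on the same arrays. Fibroblast and mural cell markers (10 tested) stood at 0.29, -0.50 and 0.041 on the control arrays and 0.19, -0.36 and 0.069 on the Cre arrays, low on both arrays numbered 2. Their summed intensity was 9406 to 18527 on control and 11475 to 15338 on Cre arrays. That sum is mostly Acta2 and does not follow these medians. Acta2 read 13.98, 13.83 and 12.96 on the control arrays and 13.73, 13.43 and 13.30 on the Cre arrays, lowest on those numbered 3. Microglia markers were lower in 9 of 12 tested genes, with a summed intensity of 1279 to 1388 on control and 1212 to 1300 on Cre arrays, and astrocyte markers were higher in 11 of 12, with 9420 to 14193 on control and 12145 to 15251 on Cre arrays. Before adjustment, 4 microglia markers were lower with a p below 0.05, among them C1qa at -0.67 (SE 0.11, limma adjusted p = 0.408). The 1 higher microglia marker was Cd68 at 0.48 (SE 0.078, limma adjusted p = 0.408). At the same threshold 5 astrocyte markers were higher, led by Hepacam at 0.32 (SE 0.052, limma adjusted p = 0.408). Of all probes, 2.83% were lower and 2.75% higher at that threshold. Neuronal markers were lower in 4 of 10; 3 were higher and 1 lower with a p below 0.05, the higher ones being Neurod1 at 0.46 (SE 0.068, adjusted p = 0.399), Nefm at 0.39 (SE 0.074, adjusted p = 0.537) and Nefl at 0.16 (SE 0.055, adjusted p = 0.784) and the lower one Stmn2 at -0.34 (SE 0.12, adjusted p = 0.803). Their summed intensity was 1238 to 1481 on control and 1260 to 1411 on Cre arrays. Oligodendrocyte markers were lower in 6 of 9 (2779 to 4826 on control and 3050 to 4089 on Cre arrays) and endothelial markers in 1 of 5 (366 to 576 on control and 392 to 487 on Cre arrays). Of the markers tested, 1 of fibroblasts and 2 of endothelial cells were not above background on every array. With the offset no normalised value can be at 0, so these levels do not show which cells were present. Listed markers without a tested probe were left out. Tested were 5 of 8 endothelial, 12 of 14 microglia and 9 of 10 oligodendrocyte markers. The part of these cells, and of the cell cycle genes, in the histone values was not tested.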

How the data were processed

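Total RNA of 6 samples was amplified, coupled to Cy5 and hybridised to 1-colour arrays, per the labels' protocols. Each deposited scanner file gives a spot median and a local background intensity at 635 nm, neither subtracted, per the file headers. The authors' deposited table holds linear intensity values in whole numbers, with empty cells for low spots and a median of 25 in every column; its background and scaling steps are not given in the sources used here. Flagged spots (0 to 9 probe spots per array) were left out. Spot medians were background-corrected with normexp, the blank spots serving as negative controls (nec of limma 3.58.1 in R 4.3.3, offset 50), then taken to log2 and quantile normalised. Probes above the blank mean plus 2 SD on at least 3 arrays were kept, 20747 in number. Cre was compared with control with limma's lmFit and eBayes, two-sided, and p-values were adjusted by Benjamini-Hochberg across the kept probes. Alternatives were other backgrounds, scalings and filters, the authors' values as log2(value + 1), a replicate block, and leaving out each array.

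Platform symbols name the probes (20690 with 1 symbol, 2783 unnamed here). Of the 67 members, 65 matched RefSeq's GRCm38.p6 table by Entrez identifier; Hist2h2bb and Hist3h2a keep the platform's name. Same-numbered arrays deviated together from their group means (r = 0.498, 0.425 and 0.436 across probes), so the numbers were taken to pair them; the labels state no shared litter, culture or day. Named genes were H1f2, every member at an unadjusted p under 0.05, all linker and variant probes, the brightest and dimmest cluster probe of each core type, and the 3 smallest p-values of each pathway list. H2ac11, H2bc11, H2ac22, H2bc22, H2ac1, H2bc1, H4c12, H2ac18, H2ac8 and H2ac10, and the values of Slbp, Npat, Nfyc and the cell markers, were added after their values were seen. The members and lists were chosen with earlier results of these data known. The fit was tested on simulated data. Intervals are at 95% confidence. Slide or scan batches were not given in the file headers.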

Additional observations from a re-analysis of the deposited data

How the results depend on the processing

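No histone probe passed the adjusted threshold under any alternative run (0 each time), and H1f2 stayed lower in Cre cultures in all of them, with limma adjusted p-values from 0.293 to 0.998. Of 33 named histone probes, 12 kept their sign under every alternative, 19 changed it under at least 1, and 2 (H1f11-ps and Hist3h2a) were at 0 on the authors' values. The count of histone probes lower at an unadjusted p under 0.05, 2 as reported, was 4 with the local background column, 4 with an offset of 10, 8 on the authors' values as log2(value + 1), 6 with the replicate block, and 1 to 17 when single arrays were left out (17 without control replicate 2). Of all probes, 2.83% were lower as reported, 9.23% on the authors' values, 4.8% with the block and 3.35% without control replicate 2. Shares of all probes were not computed for the local background column or the offset of 10, so those counts are not read as a rise. The count higher, 1 as reported, was 0 with the local background column, plain subtraction, an offset of 10, median scaling, the authors' values and the replicate block, and 0 to 1 when single arrays were left out. The replicate block left every difference as it was. The median of the cluster probes was -0.29 on the authors' values, where the median of all probes was -0.153; that of the variant probes was -0.19 with the local background column, -0.15 on the authors' values and 0.0022 with plain subtraction, and it ranged from -0.041 to 0.023 when single arrays were left out.

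Single probes changed sign as follows. With the local background column, Chd7 (M400002483) was at 0.045, H1f10 was at 0.010, H1f7 was at 0.083, H2aj was at -0.75, H2az2 was at -1.56, Macroh2a3 was at 0.12, H3f3a was at -1.31, H2bc4 was at -1.34, H4c11 was at 0.019, H2ac10 was at 0.14 and Dnajc9 was at -1.26. With plain subtraction, H1f10 was at 0.0082. Under median scaling, H2az2 was at -0.021, H3f3a was at -0.051 and H2bc4 was at -0.028. On the authors' values, H1f4 was at -0.25, H1f5 was at -0.045, H2az1 was at -0.059, H2az2 was at -0.13, H3f3a was at -0.16, H2bc4 was at -0.14, H2bu1-ps was at -0.21 and H3c7 (M300017248) was at -0.11. The median of all probes was itself -0.153 on that scale, so a sign below 0 there is not a shift particular to these probes. When single arrays were left out, H1f5 ranged from -0.020 to 0.057, H2az1 ranged from -0.037 to 0.22, H2az2 ranged from -0.060 to 0.11, Macroh2a1 ranged from -0.16 to 0.076, H3f3a ranged from -0.045 to 0.050, H4c18 ranged from -0.51 to 0.36, H1f10 ranged from -0.087 to 0.076, H1f7 ranged from -0.029 to 0.012, H2ax ranged from -0.61 to 0.080, H2bc4 ranged from -0.20 to 0.23, H3c7 (M300017248) ranged from -0.015 to 0.030, H2ac18 (M400012465) ranged from -0.17 to 0.047, H4c11 ranged from -0.042 to 0.012, H4c12 ranged from -0.46 to 0.070, H1f4 ranged from -0.0072 to 0.046 and H2bu1-ps ranged from -0.0017 to 0.027. The sign of H2ax turned without control replicate 2, that of H4c12 without control replicate 3, and that of H4c18 without control replicate 1, control replicate 3 or Cre replicate 2; the cause of the other changes was not tested. The planned slide or scan block was not run, because the file headers give neither. Differences of probes near the floor are compressed by the offset, and 3 arrays a group limit every test here.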
